A study of Rattus norvegicus with 24 samples.

Results

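Methotrexate (MTX) was compared with its saline placebo (PLA) in the peripheral blood mononuclear cells (PBMC) of arthritic rats 1 hour after the injection. The comparison used 4 arrays out of 24, namely MTX replicates 1 and 2 and PLA replicates 1 and 2, and 210 miRNAs out of the 677 on the array, those detected on at least 3 of the 24 arrays. The rats were female Wistar animals with collagen-induced arthritis (CIA), a model of rheumatoid arthritis raised by immunisation with bovine type II collagen. All animals were shaved. Both groups belong to arms given an injection into the peritoneum once a week, with the drug or with sterile saline. The rats of 1 hour were killed at the blood draw, so the weekly course applies to those of 34 days. Both groups were injected and were under ether when blood was drawn, so that the drug is what differs between them by the study's description. Beside it stand MTX against PLA at 34 days in the same model, and MTX against arthritic rats given mechanical stimulation with a subcutaneous needle (MS) at 1 hour. Untreated healthy rats (NOCIA), arthritic rats before therapy (CIA T0) and an arm in which isoflurane replaced ether (ANE) give the levels around them. The blood was drawn once from each animal, so the 2 replicates of a group are separate blood samples, and the ages of the animals were not given in the sources used here.

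MTX is an antifolate. It blocks dihydrofolate reductase and, as polyglutamates, thymidylate synthase and enzymes of purine synthesis, and at the low weekly doses used in arthritis it is also held to act through adenosine. A miRNA is a short RNA that guides Argonaute proteins to messenger RNAs, mostly through its seed, the bases near its 5′ end, and lowers their translation and stability. Mature miRNAs are long-lived in most cells. The miR-34 family is transcribed under p53 after DNA damage. PBMC are mainly lymphocytes and monocytes. Red cells, platelets and plasma that remain after a density gradient carry miRNAs of their own, such as miR-451 and miR-144 of erythroid cells, miR-126 of platelets and endothelium, and miR-122 of liver.

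The sequences below are those of the miR-34 seed family, which held 3 of the 5 smallest p-values between MTX and PLA, and of miR-483*, which had the largest difference. They are RefSeq mature sequences on GRCr8, with the seed (bases 2 to 8) in capitals. The array uses older names, in which the star marks the minor strand of a hairpin, and each was matched to the current arm of the same hairpin. The first 4 share 1 seed, GGCAGUG, which 5 RefSeq rat miRNAs carry.
miR-34a: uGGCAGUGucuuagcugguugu
miR-34b: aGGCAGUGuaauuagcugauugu
miR-34c: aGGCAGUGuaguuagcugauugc
miR-449a: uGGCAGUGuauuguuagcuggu
miR-483*: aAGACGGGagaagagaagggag

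miR-34a lies on chromosome 5 (165815971 to 165815992, plus strand), inside a long non-coding RNA gene. miR-34b (60306657 to 60306679) and miR-34c (60306133 to 60306155) lie on the minus strand of chromosome 8, inside the span of Hoatz, and their hairpins are 441 bases apart. Their mature sequences are identical at 21 of 23 bases. A probe for one of them may also bind the other, so their readings are not 2 independent measurements. Without gaps, the best match of miR-34a to miR-34b was 12 of 22 aligned bases, at a shift of 1 base. At that shift their seeds are out of register, so the count does not include the seed they share. Binding of miR-34a to the probes of the other members was not tested. miR-483* (chromosome 1, 207247903 to 207247924, minus strand) lies inside Igf2, the gene of insulin-like growth factor 2.

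The erythroid miRNAs differed in the other direction, and miR-342-3p belongs to the lymphocyte list described further on. miR-144 (63459446 to 63459465) and miR-451 (63459585 to 63459606) lie on the plus strand of chromosome 10 outside any annotated host gene, with 89 bases between their hairpins, and miR-144* is the other strand of the miR-144 hairpin. miR-342-3p (chromosome 6, 133329715 to 133329737, plus strand) lies inside Evl, which encodes an actin regulator. No sequence is given here for miR-150.
miR-144: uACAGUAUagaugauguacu
miR-144*: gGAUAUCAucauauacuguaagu
miR-451: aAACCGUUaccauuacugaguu
miR-342-3p: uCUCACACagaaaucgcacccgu

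All 4 arrays lay on 1 slide together with NOCIA and MS at 1 hour, so a difference between slides does not enter the comparison. The summed intensity of the detected miRNAs was 198023 and 142260 on the MTX arrays and 207196 and 224351 on the PLA arrays, and the arrays detected 188, 174, 197 and 203 miRNAs. MTX replicate 2 was the dimmest of the 4 and detected the fewest. Pearson's r between pairs of arrays, across the 163 miRNAs detected on all 4, ran from 0.955 to 0.988. PLA replicate 2 stood apart by Pearson's r, which was 0.955 to 0.979 with the other arrays. Its median absolute log2 difference from MTX replicate 2 was 0.59 and from PLA replicate 1 it was 0.41. From MTX replicate 1 it was 0.26, near the 0.28 between the 2 MTX replicates. Between MTX replicate 1 and PLA replicate 1 the value was 0.21. The 2 PLA replicates were thus less alike than either was to MTX replicate 1.

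With limma, 0 of the 210 miRNAs passed an adjusted p under 0.05 (0% called), and the smallest adjusted p was 0.830. Before adjustment 5 miRNAs had a p below 0.05, 4 higher in MTX (1.9% of those tested) and 1 lower (0.476%), where 10.5 would pass by chance. The study's threshold asks for more than a 2-fold difference and the same unadjusted p, and was applied to the 163 miRNAs that all 4 arrays detected. It was passed by 2 of them (1.23%), miR-483* and miR-34b, both higher in MTX, and by 0 lower ones. Values are log2 of the scaled intensity throughout, a difference is MTX minus PLA on that scale, and the floor is 2.53. In 31 miRNAs both MTX arrays lay above both PLA arrays (14.8%) and in 18 both lay below (8.57%). The median difference over all 210 was -0.03. Some miRNAs passed the adjusted threshold when a single array was left out, all lower in MTX. They were miR-194 (-1.38) without MTX replicate 1, and miR-138 (-2.23) and miR-425* (-1.07) without PLA replicate 1. Of the 4 arrays, 3 detected miR-194, 1 detected miR-138 and 2 detected miR-425*.

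The miR-34 family, the p53-activated seed family, held 3 of the 4 higher readings. miR-34b was at 5.26 and 5.75 on the MTX arrays and at 4.26 and 3.60 on the PLA arrays. All 4 arrays detected it, and the groups did not overlap. The difference was 1.57 (SE 0.51, 95% interval 0.48 to 2.66, limma adjusted p 0.830). miR-34c was at 4.34 and 5.48 in MTX and at 3.86 and the floor in PLA, where replicate 2 did not detect it. The difference was 1.71 (SE 0.62, limma adjusted p 0.884) and depends on where the floor is set, being 1.21 with the floor doubled.

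miR-34a, the brightest member of the family, was at 8.29 and 7.97 in MTX and at 7.79 and 7.62 in PLA. It was detected on all 24 arrays. Its difference was 0.42 (SE 0.17, 95% interval 0.06 to 0.79, limma adjusted p 0.884), a narrow interval beside those of the dimmer members. miR-449a has the same seed and was detected on 1 array of each group, at 3.89 on MTX replicate 2 and 3.93 on PLA replicate 1, with a difference of -0.02 (SE 0.74). Across the alternatives listed in the closing section the difference of miR-34b lay between 0.25 and 2.08, that of miR-34c between 0.21 and 2.38 and that of miR-34a between 0.07 and 0.74, and none turned negative.

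miR-483*, the minor strand of the hairpin within Igf2, had the largest difference of the 210. It was at 5.95 and 5.51 in MTX and at 2.53 and 3.59 in PLA. PLA replicate 1 lay at the floor although the scanner software listed the miRNA as detected there. The difference was 2.67 (SE 0.81, 95% interval 0.92 to 4.42, limma adjusted p 0.830). With PLA replicate 1 at the floor, the size of this difference depends on the floor, being 2.79 with the floor halved and 2.17 with it doubled. It was smaller in the other summaries of the same spots, 1.57 with the mean spot signal, 1.43 in the authors' log2 table and 0.43 with normexp background correction.

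**Figure D1:**
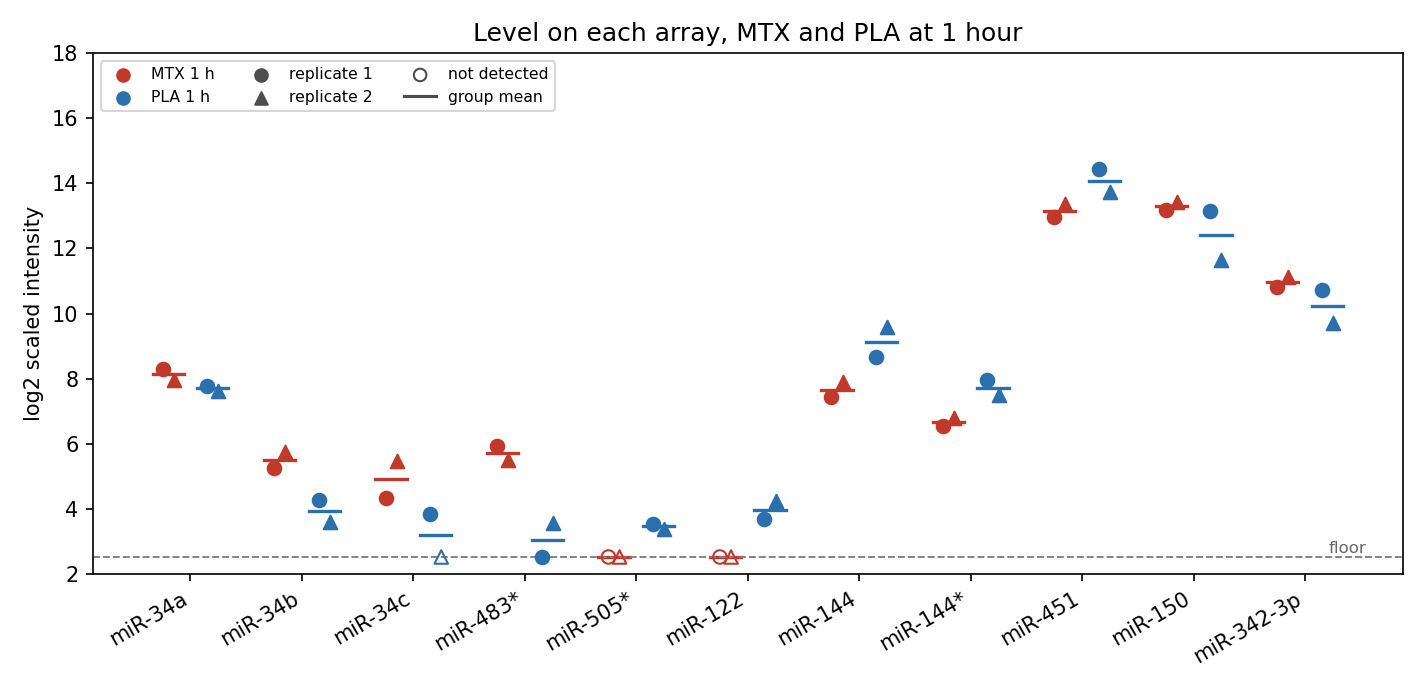
Level on each array (log2 scaled intensity, y axis) of 11 miRNAs described in the text (x axis) in MTX (red) and PLA (blue) at 1 hour; circles are replicate 1, triangles replicate 2, open symbols undetected values and bars group means of 2 arrays. Both MTX arrays are above both PLA arrays for miR-34a, miR-34b, miR-34c and miR-483*, and below them for miR-144, miR-144* and miR-451, while PLA replicate 2 (11.65) is far below the other 3 arrays for miR-150.

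Detection differed in 1 direction. 4 miRNAs were detected on both PLA arrays and on neither MTX array, and 0 the other way round. An undetected value carries only the error estimate of the software and is no measured level. miR-122, the abundant hepatocyte miRNA, was at 3.69 and 4.26 on the PLA arrays, at least 2.55-fold higher than in MTX (limma adjusted p 0.884). miR-505* was at 3.53 and 3.40, at least 1.79-fold higher than in MTX (limma adjusted p 0.884), and was the 1 lower miRNA among the 5 with the smallest p. miR-30b-3p and miR-674-3p were listed as detected on both PLA arrays with values at the floor, so no difference could be measured. The MTX arrays were also the 2 that detected fewer miRNAs and had the smaller summed intensity, and the part of this in the 4 detection differences was not tested.

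Of the 163 miRNAs detected on all 4 arrays, 132 differed by less than 0.5 and 5 by more than 1. The median absolute difference was 0.23, and the median SE was 0.31. The 95% interval lay within a change of 1 on the log2 scale, a 2-fold change, for 85 of the 163 (52.1%). For the others these arrays do not exclude a 2-fold difference in at least 1 direction. A permutation test of a single miRNA over 2 arrays against 2 cannot give a two-sided exact p below 0.333, so only the limma fit is used.

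**Figure D2:**
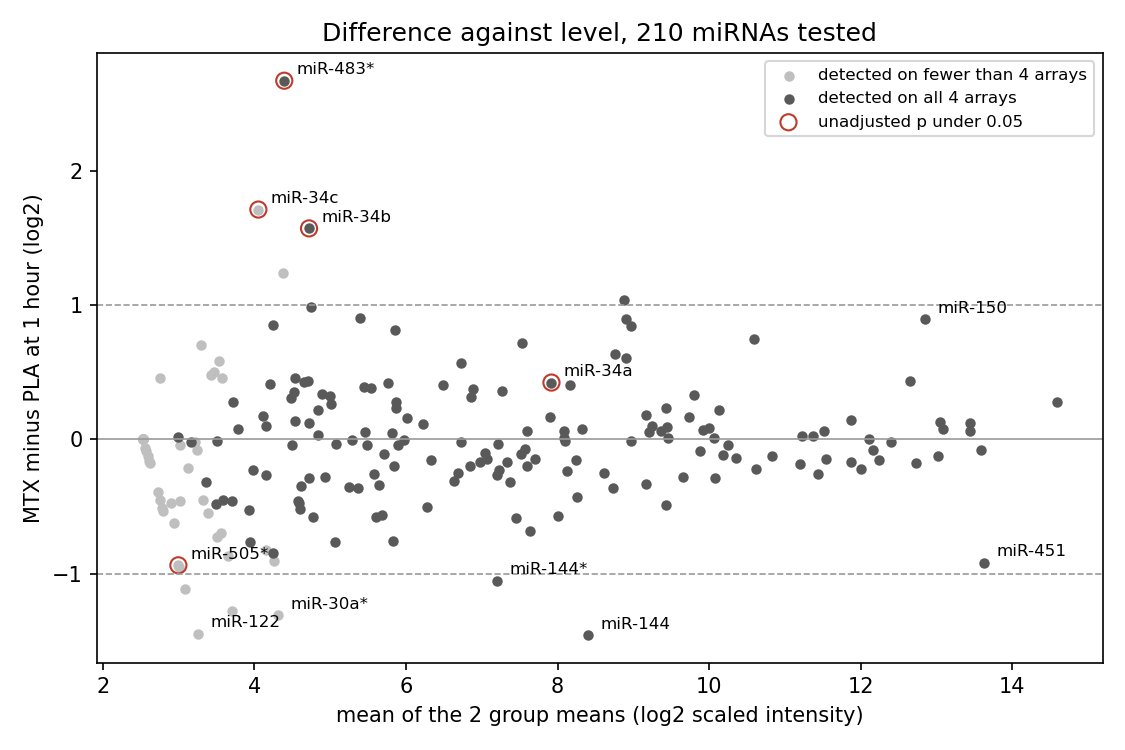
MTX minus PLA at 1 hour (log2, y axis) against the mean of the 2 group means (log2 scaled intensity, x axis) for the 210 miRNAs tested; dashed lines mark 2-fold differences, dark points the 163 miRNAs detected on all 4 arrays and red rings the 5 with an unadjusted p under 0.05. The largest differences, up to 2.67 for miR-483*, lie among dim miRNAs, and miR-144 and miR-451 are the lower ones at brighter levels.

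The 10 brightest miRNAs of the 4 arrays held the leukocyte markers miR-142-3p, miR-150 and miR-223, as the label of PBMC asks, and also miR-451 of red cells. miR-21, which is abundant in activated leukocytes, was at 14.70 and 14.75 in MTX and at 14.62 and 14.27 in PLA, a difference of 0.28 (SE 0.28). let-7f was at 13.57 and 13.43 against 13.32 and 13.44, and let-7a at 13.20 and 13.04 against 13.02 and 13.08. miR-16 was at 13.48 on both MTX arrays and at 13.61 and 13.22 in PLA. Their differences of 0.12 (SE 0.15), 0.07 (SE 0.14) and 0.06 (SE 0.23) were smaller than their standard errors. miR-142-3p, which is made across the haematopoietic lineage, was at 13.53 and 13.56 against 13.63 and 13.62, a difference of -0.08 (SE 0.20). miR-15b differed by 0.13 (SE 0.17) and miR-26a by -0.12 (SE 0.17).

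The erythroid miRNAs were lower on both MTX arrays. miR-144, which erythroid cells make together with miR-451, was at 7.43 and 7.90 in MTX and at 8.66 and 9.59 in PLA, a difference of -1.46 (SE 0.95, 95% interval -3.49 to 0.58). miR-144* was at 6.56 and 6.78 against 7.96 and 7.49, with a difference of -1.05 (SE 0.91). miR-451, among the most abundant RNAs of red cells, was at 12.97 and 13.35 against 14.44 and 13.73, with a difference of -0.92 (SE 0.94). All 3 measured members of the list had groups that did not overlap, beside 8.57% of all miRNAs tested, and 0 were called (limma adjusted p 0.884 for each). miR-486 is not on the array under that name, and miR-96 was on it but not among the 210. Of the summed intensity of detected miRNAs, miR-451 took 3.80% and 5.26% on the MTX arrays and 10.5% and 6.80% on the PLA arrays. A smaller number of erythroid cells in the preparation and less of these miRNAs per cell cannot be told apart in bulk PBMC.

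The spread of the erythroid miRNAs was wide within other groups as well, and this sets their standard errors. miR-451 was at 14.68 and 12.05 on the 2 arrays of CIA T0 and at 11.15 and 13.90 in ANE at 1 hour. Its levels in MTX at 1 hour lay inside the range of those 4 arrays, and so did the PLA levels.

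The lymphocyte list leaned the other way, and with 1 PLA array. miR-150, which rises in mature B and T cells, was at 13.18 and 13.42 in MTX and at 13.16 and 11.65 in PLA, a difference of 0.90 (SE 0.89, limma adjusted p 0.884). Without PLA replicate 2 the difference of miR-150 was 0.14. miR-342-3p was at 10.82 and 11.11 against 10.72 and 9.72 (0.75, SE 0.48), and 0.25 without PLA replicate 2. miR-342-5p (0.90, SE 0.65) and miR-150* (0.82, SE 0.82) shared the low value on PLA replicate 2, at 4.06 and 4.83. In the miR-181 family of lymphoid cells, miR-181b differed by 0.38 and miR-181a by 0.33, while miR-181c differed by -0.32 and miR-181d by -0.20. Of the 8 measured members, 0 were called, 4 had groups that did not overlap, all higher, beside 14.8% of all miRNAs tested, and the median difference was 0.56, or 0.15 without PLA replicate 2, beside -0.03 over all 210. The summed level of the list was 13.63 and 13.86 in MTX and 13.60 and 12.37 in PLA.

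The myeloid and platelet markers differed in both directions. miR-223, the granulocyte and monocyte miRNA, was at 12.77 and 12.50 in MTX and at 12.52 and 13.11 in PLA, with a difference of -0.18 (SE 0.25). The highest of these 4 values again belonged to PLA replicate 2. miR-146a, a feedback regulator of NF-kB signalling, was at 9.0 and 9.42 against 8.90 and 8.31 (0.60, SE 0.53), and miR-338 differed by -0.50 (SE 0.51). miR-126 was at 6.77 and 5.73 against 5.98 and 6.84 (-0.15, SE 0.47). miR-143 differed by -0.57 (SE 0.46), and miR-145 was detected on none of the 4 arrays. The groups of miR-223, miR-338, miR-126 and miR-143 overlapped.

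The antifolate-linked list holds miRNAs tied to folate enzymes, to the response to antifolates or to p53, and 9 of its 10 members were measured. 0 were called, and the 3 with an unadjusted p below 0.05 were the miR-34 members, all higher, beside 1.9% of all miRNAs tested. That 1.9% is 4 miRNAs, which include these 3, and the list was chosen with earlier results of these data known. miR-24, which has a target site reported in dihydrofolate reductase, was at 11.33 and 10.88 in MTX and at 11.09 and 11.48 in PLA, a difference of -0.18 (SE 0.24). miR-192, a p53-linked miRNA, was at 4.54 and 4.40 against 5.04 and 3.98 (-0.04, SE 0.30). miR-194, made from the same precursors as miR-192 or its paralog miR-215, was at 3.90 in MTX replicate 1 and undetected in replicate 2, against 4.08 and 3.74 in PLA (-0.70, SE 0.33, limma adjusted p 0.884). Without MTX replicate 1, where the undetected array is all that remains of the group and is assumed to vary like the other groups, miR-194 passed the threshold (-1.38, limma adjusted p 0.0229). With normexp and in the authors' log2 table the difference of miR-194 was 0.02 and 0.04. miR-22 differed by -0.09, miR-125a-5p by -0.35 and miR-125b-5p by -0.23, and the list median was -0.09. The p53-linked list shares the miR-34 members, miR-192 and miR-194, and of its 10 measured members 0 were called, with a median of 0.03.

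Of the 10 measured inflammation miRNAs, 0 were called, 4 had groups that did not overlap, all higher, beside 14.8% of all miRNAs tested, and the median difference was 0.06. The 4 were miR-21, miR-146a, miR-146b and miR-150. The list shares miR-150 and miR-181a with the lymphocyte list and miR-146a and miR-223 with the myeloid list. It also shares miR-126 with the platelet list and miR-125a-5p and miR-125b-5p with the antifolate list. Its count is therefore not separate from theirs. miR-155 is not on the array under that name. miR-146b, at 7.66 and 7.61 in MTX and 7.54 and 7.59 in PLA, differed by 0.07 (SE 0.19).

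Families of broadly expressed miRNAs were close to level. The 8 let-7 members, which restrain growth-promoting genes, had differences from -0.10 to 0.12 with a median of 0.01, and 0 had groups that did not overlap. The 10 measured members of the miR-17-92 cluster and its paralogs, which promote proliferation, had a median of -0.19, from -0.49 to 0.01. The 5 members of the miR-23/27/24 clusters had a median of -0.14, the 5 of the miR-30 family 0.09, the 3 of the miR-29 family 0.23, the 5 measured of the miR-15/16 family -0.17 and the 7 measured of the cluster that holds miR-500 0.16. miR-210, the hypoxia-induced miRNA, was at 7.70 and 6.88 against 7.47 and 8.48, a difference of -0.68 (SE 0.38), with the highest value on PLA replicate 2 and the lowest on MTX replicate 2. The 42 minor strands among the 210 had a median of 0 and ran from -1.31 to 2.67. In each of these lists 0 members were called. The sign of these medians depended on the scaling: the median over all 210 was -0.36 without scaling and 0.20 with the percentile taken over all miRNAs, and with it let-7 moved to -0.35 and 0.32 and miR-17-92 to -0.55 and 0.12.

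**Figure D3:**
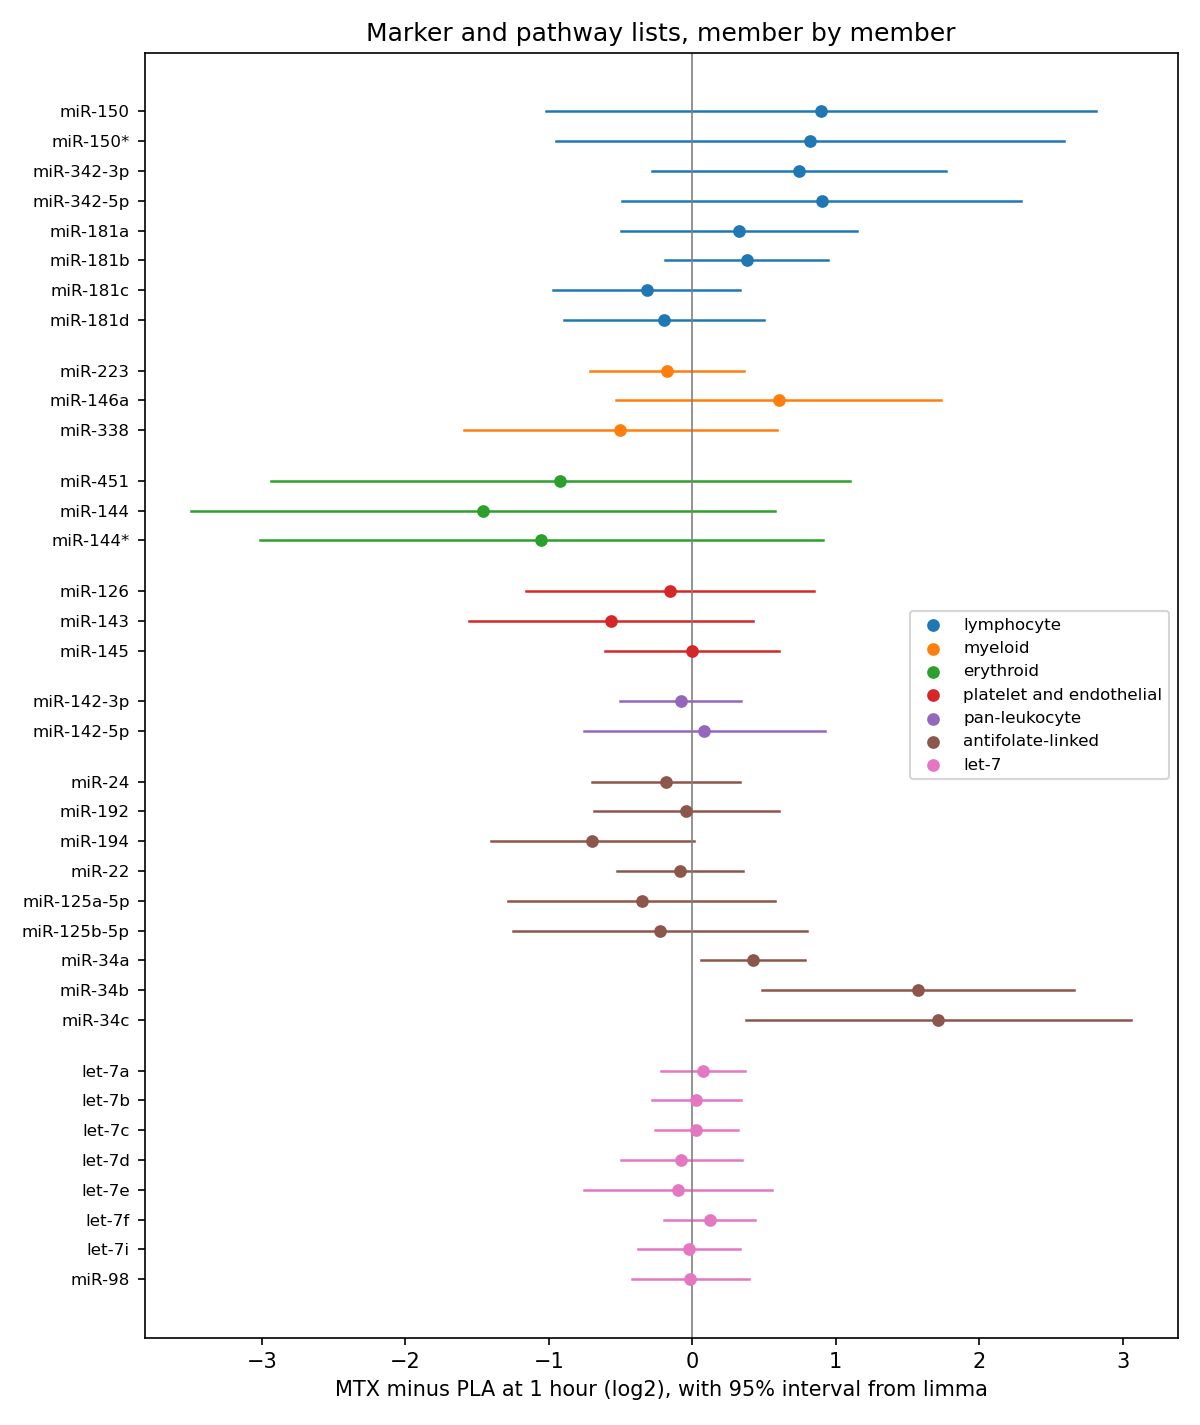
MTX minus PLA at 1 hour (log2, x axis) for each measured member of 7 lists (rows, coloured by list), with its 95% interval from the limma fit to 24 arrays. All 8 let-7 points lie between -0.10 and 0.12, the 3 erythroid points lie at or below -0.92 with intervals that include 0, and the intervals of the 3 miR-34 members lie above 0 before adjustment for the 210 tests.

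The remaining miRNAs among the 10 largest differences in each direction, of those detected on all 4 arrays, mostly had 1 array far from the other 3. On the higher side miR-3588 was at 8.94 and 9.85 in MTX against 8.61 and 8.10 in PLA (1.04, SE 0.73). miR-181a-1* (0.98), miR-1949 (0.90) and miR-7a (0.84) had their lowest value on PLA replicate 2, at 3.29, 7.76 and 7.75, and PLA replicate 1 lay beside the MTX arrays. miR-466b-1* (0.85) was at the floor on PLA replicate 1, at 2.53, and highest on PLA replicate 2, at 5.10. On the lower side miR-32 (-0.76), miR-488 (-0.76), miR-497 (-0.76) and miR-301a (-0.59) had their highest value on PLA replicate 2, at 6.31, 5.04, 6.54 and 8.12. miR-339-5p (-0.85) and miR-10a-5p (-0.58) were lowest on MTX replicate 2, at 3.11 and 3.85. In each of these 6 lower miRNAs MTX replicate 1 lay within the range of the PLA arrays.

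The 12 groups place the miR-34 family and miR-483* more widely. miR-34b in MTX at 1 hour (5.51 ± 0.34, SD, n = 2) came next after ANE at 1 hour (5.83 ± 0.65, 6.29 and 5.37 on its arrays), and these 2 groups overlapped. The other 10 groups had means from 3.48 (NOCIA at 34 days) to 4.42 (NOCIA at 1 hour), and no array of theirs reached 5.26, the lower MTX value of miR-34b. miR-34c had the same 2 groups on top, with means of 5.40 in ANE and 4.91 in MTX at 1 hour, and the lower MTX array of miR-34c, 4.34, was close to the higher array of CIA T0, 4.31. The ANE arrays of 1 hour lay on another slide, and those animals received no therapy beside the other anaesthetic. miR-34a was at means of 7.70 to 8.16 in the 12 groups, with CIA T0 highest and MTX at 1 hour (8.13 ± 0.23) next. PLA at 1 hour lay at the lower end of this range. At 34 days the means of miR-34a were 8.06 in MTX and 7.97 in PLA.

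miR-483* in MTX at 1 hour (5.73 ± 0.31) was followed by MS at 1 hour (4.92 ± 0.18, both arrays detected) and by NOCIA at 1 hour, where 1 array was at 5.49 and the other at the floor. Single arrays at 34 days also reached 4.93 (PLA) and 3.60 (MTX). The groups at 1 hour with a high array, MTX, MS and NOCIA, shared the slide with PLA. miR-122 was at 7.76 and 7.73 in NOCIA before therapy and at 8.96 and 5.43 in ANE at 1 hour, far above its PLA level of 1 hour, and it was undetected on both arrays of MS at 1 hour, CIA T0, and NOCIA, MS and PLA at 34 days.

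**Figure D4:**
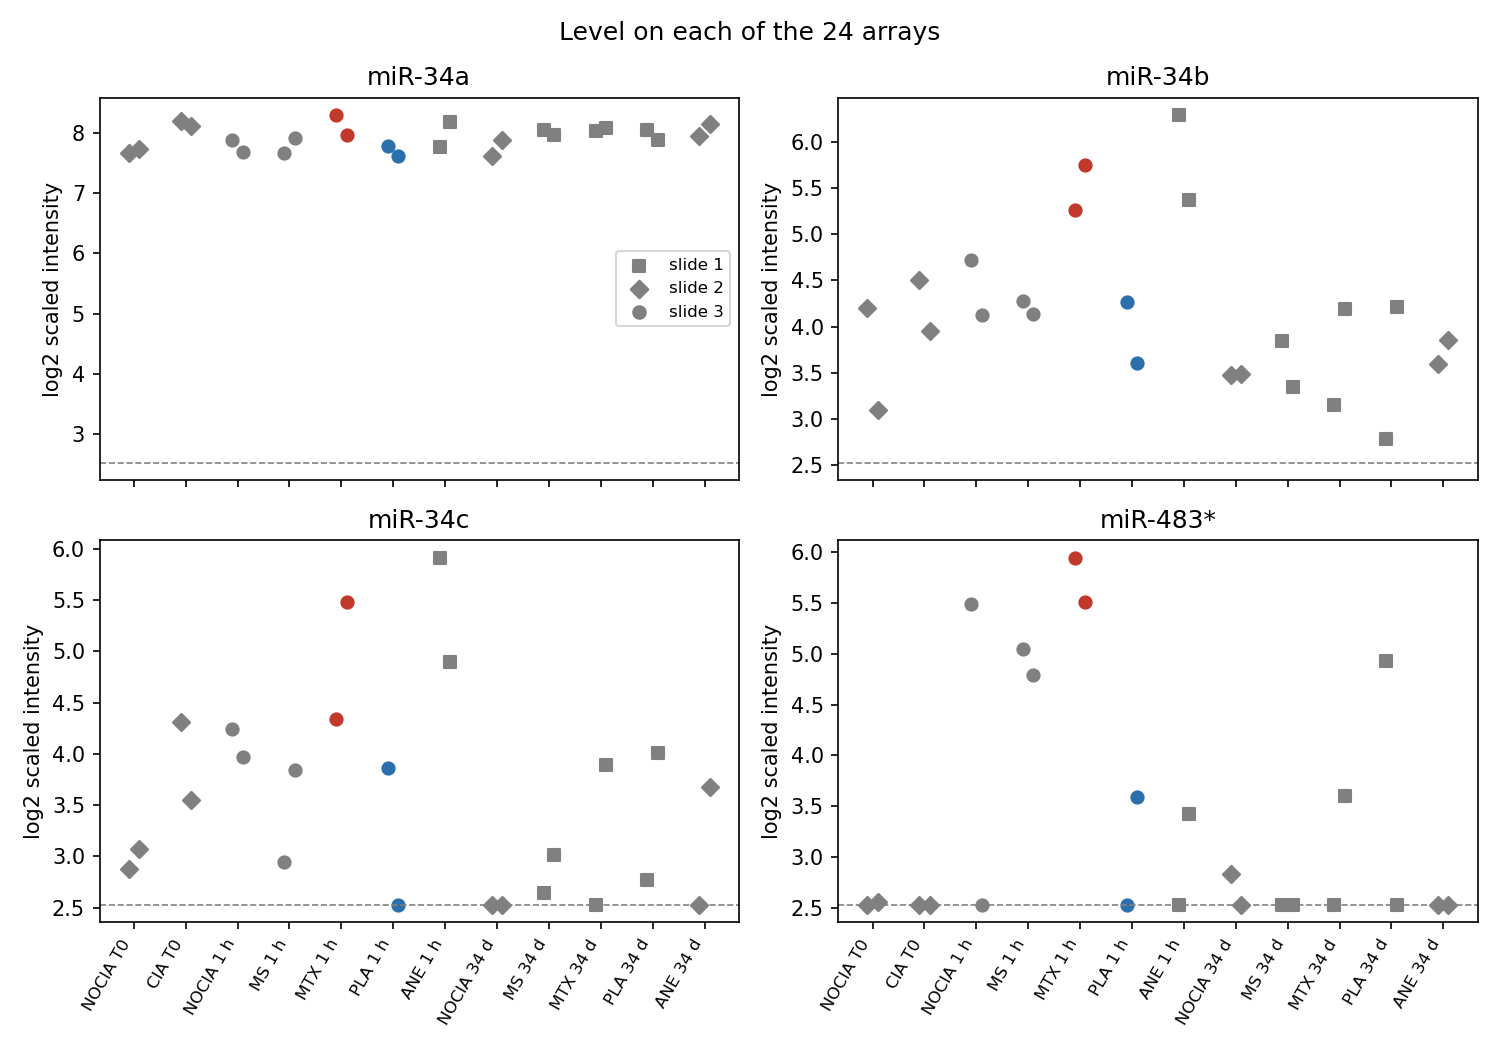
Level on each of the 24 arrays (log2 scaled intensity, y axis) of miR-34a, miR-34b, miR-34c and miR-483* in the 12 groups (x axis, 2 arrays each); red is MTX and blue PLA at 1 hour, marker shape gives the slide and the dashed line is the floor of 2.53. MTX and ANE at 1 hour are the highest groups for miR-34b and miR-34c, and miR-483* is at or near the floor on most arrays outside 1 hour. All arrays outside 1 hour lie on other slides than MTX and PLA at 1 hour, and the part of the slide was not tested.

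The difference between MTX and PLA at 1 hour was then set against that at 34 days, which shares no array with it and lay on another slide. In the test of the change between the times, 1 hour minus 34 days, 0 of 210 passed the adjusted threshold (0% called, smallest limma adjusted p 0.599), and 7 had an unadjusted p below 0.05 (3.33%), 1 higher and 6 lower. At 34 days itself limma called 0 miRNAs, and 5 had an unadjusted p below 0.05. miR-483* differed by -0.66 at 34 days, so that the difference between the times was 3.34 (SE 1.15, limma adjusted p 0.599). miR-34b differed by 0.18 at 34 days (1.40 between the times, SE 0.72), miR-34c by -0.18 (1.89, SE 0.88) and miR-34a by 0.10 (0.33, SE 0.24). miR-194 differed by 0.96 at 34 days and -0.70 at 1 hour, a difference of -1.66 between the times (SE 0.46, limma adjusted p 0.599). The other lower ones between the times were miR-339-5p (-2.06), miR-125b-3p (-1.90), miR-320 (-1.19), miR-20a* (-0.98) and miR-505 (-0.78). The erythroid miR-144 differed by -0.15 at 34 days and miR-451 by -0.55.

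Across the 143 miRNAs detected on all 8 arrays, the differences of the 2 times ran against each other, with Pearson's r of -0.587 and Spearman's rho of -0.705, and 16.8% had the same sign. This is a correlation across miRNAs of the same few arrays, which are not independent replicates, and it is given without a test. It depended on single arrays: without PLA replicate 2 of 1 hour r was -0.077, and without MTX replicate 2 of 1 hour it was -0.269.

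**Figure D5:**
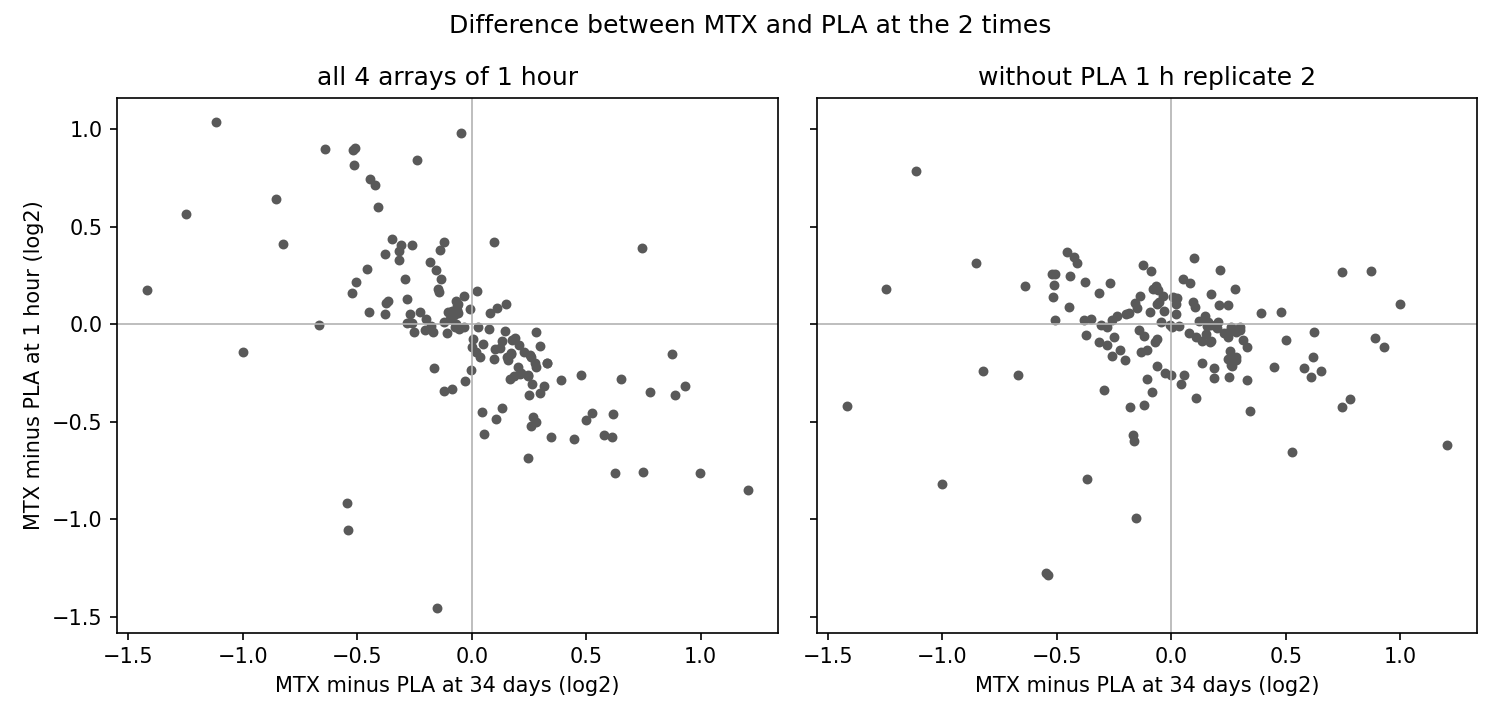
MTX minus PLA at 1 hour (log2, y axis) against MTX minus PLA at 34 days (log2, x axis) for 143 miRNAs detected on all 8 arrays, with all arrays (left) and without PLA replicate 2 of 1 hour (right). The falling trend on the left (r = -0.587) is nearly absent on the right (r = -0.077).

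MTX at 1 hour was also compared with MS at 1 hour, the other treated arm on the slide, to show what the MTX arrays gave against arrays other than PLA. limma called 3 miRNAs higher in MTX (1.43%) and 0 lower (0%). Before adjustment 30 of the 210 had a p below 0.05, 29 higher in MTX and 1 lower. The threshold of the study was passed by 10 of the 157 miRNAs detected on every array compared, all higher in MTX. The part of the array scaling in this lean to higher values was not tested. The sequences of the 3 called miRNAs are shown because they were the only calls of the 3 comparisons. let-7b* lies on chromosome 7 (118684098 to 118684119, plus strand), miR-298 on chromosome 3 (183470571 to 183470593, minus strand) and miR-3544 on chromosome 6 (134321165 to 134321187, minus strand), on GRCr8.
let-7b*: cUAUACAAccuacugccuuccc
miR-298: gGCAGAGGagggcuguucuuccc
miR-3544: aACUCCUGcaugacgccguuccc

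let-7b*, the minor strand of the let-7b hairpin, was at 4.24 and 5.02 in MTX and at 3.27 and the floor in MS (1.73, SE 0.28, limma adjusted p 0.00297). miR-298 was at 4.62 and 4.90 against 3.27 and 2.81 (1.72, SE 0.35, limma adjusted p 0.0150). miR-3544 was at 4.75 and 4.96 against 3.20 and 3.74 (1.39, SE 0.23, limma adjusted p 0.00297). These SEs are pooled over the 12 groups, some of which lay at the floor with an SD of 0. At 34 days this held in PLA for let-7b*, in MTX for miR-3544 and in both arms for miR-298. Groups at the floor lower the SE, so these p-values do not measure the spread of MTX and MS alone. The PLA levels of these 3 miRNAs were near those of MTX. let-7b* was at 4.70 and 3.95 in PLA, miR-298 at 4.61 and 3.99, and miR-3544 at 4.86 and 4.78, and the differences of MTX from PLA were 0.31 (SE 0.28), 0.46 (SE 0.35) and 0.04 (SE 0.23). In healthy NOCIA rats at 1 hour miR-3544 was at 4.77 on both arrays. On the arrays of the other slides let-7b* reached at most 3.67, miR-298 at most 3.70 and miR-3544 at most 3.56, close to their levels in MS, which shared the slide with MTX. The calls rested on the processing: 0 were made without scaling, with the percentile taken over all miRNAs, with quantile normalisation, with the authors' log2 table or without MTX replicate 2, and 39 were made without MS replicate 2. With only the arrays of the slide in the fit the differences stayed at 1.73, 1.72 and 1.39 and 0 calls were made. All 3 were called without MTX replicate 1 and without MS replicate 1. MS replicate 1 had the largest summed intensity of the slide, 371061, and without it let-7b* differed by 2.10 (limma adjusted p 0.00103), miR-298 by 1.95 (limma adjusted p 0.0357) and miR-3544 by 1.11 (limma adjusted p 0.0376).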

How the data were processed

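The authors deposited, for each array, intensity values on a linear scale, read from Agilent one-colour arrays with Feature Extraction 10.7.3.1 (per the file headers), summed over the spots of each miRNA and background-corrected by the authors' software, with a detection flag. Per the labels the cells were isolated on a Ficoll gradient and the RNA was labelled with Cy3. The authors also deposited a log2 table of the same arrays, whose normalisation and centring stay unknown here (the submitters' processing notes name RMA, and the study's methods AgiMicroRna and limma). Its columns each matched their own array best, with medians of 2.89 to 2.91, and it served as an alternative.

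Each array was scaled to a common 75th percentile over the 132 miRNAs detected on all 24 arrays, values under 5.76 were raised to this floor, and log2 was taken. A limma 3.58.1 model (R 4.3.3) of 12 group means was fitted to the 24 arrays, leaving 12 residual degrees of freedom, with two-sided tests and Benjamini-Hochberg adjustment over 210 miRNAs. The number of arrays limits the precision.

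The members and lists were chosen with earlier results of these data known. The text names the 10 largest differences in each direction among miRNAs detected on all 4 arrays, the 10 brightest, those past the study's threshold or detected in 1 group only, calls (also those of MTX or PLA against CIA before therapy), and members of the marker, inflammation and antifolate lists. miR-449a and the miRNAs called between the times or without an array were chosen after their values were seen. Alternatives covered scaling, spot summary, background correction (normexp, planned on the raw spot signal, run on its median with an offset of 50), filters, floors, arrays in the fit, moderation, threshold, the replicate number as a block and leaving out each array. A block for the replicate number has no basis in the labels, and the deviations of same-numbered MTX and PLA arrays from their group means correlated at -0.574 across 163 miRNAs. Of 14 miRNAs looked up in RefSeq by arm, 13 had a sequence.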

Additional observations from a re-analysis of the deposited data

How the results depend on the processing

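Between MTX and PLA at 1 hour, limma's 0 calls became 1 with the floor at 2 times (miR-328a*), 2 by the study's threshold and 5 without adjustment, and ran from 0 to 2 when single arrays were left out. With the floor at 2 times miR-328a* differed by 0.27. The replicate numbers do not pair the samples by the labels. With the replicate block the count was 0 over the 24 arrays, 0 over the arrays compared and 0 with the crossed pairing. For 1 hour minus 34 days the 0 calls became 1 with the floor at 2 times, 2 by the study's threshold and 7 without adjustment, with 0 to 2 without single arrays. MTX against MS gave 3 calls, also with the replicate block over 24 arrays, but 0 without scaling, with the percentile over all miRNAs, quantile normalisation, the mean spot signal, normexp, the authors' table, only the arrays compared (with or without the replicate block) or only the slide. With only the arrays compared or only the slide the differences themselves were identical. The estimate of the spread and its degrees of freedom were what changed. It gave 10 by the study's threshold, 30 without adjustment and 0 to 39 without single arrays. The share of intervals within a 2-fold change (52.1%) was 20.2% without scaling, 27% with the percentile over all miRNAs, 89.6% with normexp and 11.7% with the replicate block over the arrays compared.

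Over single miRNAs 1287 values neither turned in sign nor crossed the threshold, 33 were weaker, 2 stronger and 60 reversed, and none of the reversals of MTX minus PLA at 1 hour fell on miR-483*, the miR-34 members or the erythroid miRNAs. Where a sign turned, the cause was not tested. Without scaling the differences were -0.077 for miR-21, -0.29 for miR-16, -0.24 for let-7f, -0.28 for let-7a, -0.23 for miR-15b, -0.27 for miR-142-5p, -0.030 for miR-181a, -0.29 for miR-146b, -0.052 for let-7b*, -0.32 for miR-3544 and, for 1 hour minus 34 days, -0.47 for miR-34a. With the percentile over all miRNAs they were 0.23 for miR-142-3p, 0.19 for miR-26a, 0.14 for miR-223, 0.12 for miR-181d, 0.16 for miR-126, 0.090 for miR-125b-5p, 0.14 for miR-24, 0.27 for miR-192 and 0.23 for miR-22. Quantile normalisation gave 0.14 for miR-142-3p. The mean spot signal gave -2.63 for miR-181a-1* and -0.12 for miR-146b. Normexp gave -0.11 for miR-181a-1*, 0.0029 for miR-125a-5p, 0.023 for miR-192 and 0.018 for miR-194. The authors' table gave -0.061 for miR-21, -0.022 for miR-16, 0.078 for miR-125a-5p, 0.086 for miR-192 and 0.041 for miR-194.

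Leaving out single arrays turned the sign of 19 of the differences, which then ran from -0.43 to 2.14 for miR-466b-1*, -1.63 to 0.10 for miR-32, -1.22 to 0.065 for miR-10a-5p, -0.13 to 0.26 for miR-16, -0.0028 to 0.15 for let-7a, -0.016 to 0.28 for miR-15b, -0.34 to 0.087 for miR-26a, -0.47 to 0.11 for miR-223, -0.063 to 0.23 for miR-142-5p, -0.089 to 0.75 for miR-181a, -0.58 to 0.18 for miR-181d, -0.67 to 0.37 for miR-126, -0.83 to 0.12 for miR-125a-5p, -0.65 to 0.20 for miR-125b-5p, -0.41 to 0.047 for miR-24, -0.57 to 0.49 for miR-192, -0.25 to 0.077 for miR-22, -0.085 to 0.70 for let-7b* and -0.071 to 0.14 for miR-3544. Where an array is left out, its group has 1 array, which is assumed to vary like the other groups. Undetected miRNAs carry no level, so for the 41 miRNAs detected on 1 to 3 of the 4 arrays the difference depends on the floor, as it does for miR-483*, which had 1 detected value below it.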
